A study of Homo sapiens with 2 samples.

Results

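The 9 genes described here are keratins and secretory genes by which the exocrine pancreas is recognised. They are the keratins KRT7, KRT8, KRT18 and KRT19, the duct genes CFTR and SPP1, and the acinar genes SPINK1, PRSS1 and CPA1. They were chosen by symbol and make up 9 of the 33694 genes in the count matrices. Each was followed across 6 cell classes and in both libraries of stem cell derived islet-like clusters.

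The exocrine pancreas makes digestive enzymes in acinar cells and carries them away through a tree of ducts, whose cells add bicarbonate. Simple epithelia such as ducts hold keratin filaments built from a type I and a type II keratin, most often KRT18 with KRT8, and duct cells add KRT19 and, in many ducts, KRT7. Endocrine progenitors arise from a SOX9-expressing epithelium that also gives rise to ducts, so duct and acinar genes are commonly read in islet-like cultures as signs of cells that took another fate.

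The study asked what SOX9 does in human beta cells. Enhanced beta clusters (eBCs) were grown from iSOX9KO cells, a line made from the human embryonic stem cell line Mel1-INS-GFP, in which insulin-expressing cells carry GFP. By the study's methods the line carries a doxycycline-inducible Cas9 and its activator M2rtTA at the AAVS1 locus, together with guide RNAs against SOX9 that are always expressed, and a single clone was used after the first characterisation. Both libraries share this genotype. One received no doxycycline (labelled no DOX) and the other received 2 ug/ml from day 12 of differentiation (labelled DOX), so Cas9 induction, doxycycline itself and the library cannot be told apart. GFP-high cells had been sorted and reaggregated before the eBCs were cultured further, and this gate acts on the share of cells that are not insulin-positive. With 1 library per condition, differences between libraries were not tested, and all intervals below are exact 95% intervals that cover counting error only.

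The matrices held 30288 barcodes labelled no DOX and 31817 labelled DOX, with 550240855 and 520849221 UMIs (unique transcript molecules) in all and 500 to 96590 per barcode. After removal of barcodes under 1000 UMIs and of doublets, 21805 and 23116 cells were kept, with medians of 13958 and 12667 UMIs. The libraries shared 369 barcodes, 141 of them among the cells kept. The targeted gene SOX9 stood at 2.998 CPM labelled no DOX (946 UMIs) and 3.778 CPM labelled DOX (1147 UMIs) over all cells kept, CPM being UMIs scaled to the same total in each class and library. It was thus no lower under the label DOX, and conditions are named here only by their labels. An insertion or deletion made by Cas9 was not measured by these counts.

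Clustering without the 9 genes or any other gene of the keratin, duct and acinar lists gave 7 clusters, of which 6 could be named from markers. Beta-like cells were the most numerous at 16914, followed by beta cell progenitor-like cells at 10618, alpha-like cells at 9180 and delta-like cells at 4576, and a proliferating progenitor-like class numbered 975. The duct-like class held 333 cells, 154 labelled no DOX and 179 labelled DOX, or 0.741% of cells kept. All 13 of its markers, which the study had drawn from these same libraries, were at least 2-fold higher there than in the other cells, and TM4SF1, GUCA2A and TTYH1 led it. SOX9 was present in 89.2% of duct-like cells at 268 CPM, against 0.978 CPM over the 4 endocrine classes (delta-like, alpha-like, beta-like and the beta cell progenitors). Another 2325 barcodes, with a median of 1977 UMIs of which 70.8% were mitochondrial, stayed unnamed. In what follows a level is the UMIs of a gene summed over the cells of a class and given in CPM. Levels were compared between classes and libraries, and pairs of genes only by how their UMI ratio differed between classes.

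The members lie on 5 chromosomes of GRCh38. KRT7 (12:52232520-52252186, plus strand), KRT8 (12:52897187-52949954, minus strand) and KRT18 (12:52948871-52952906, plus strand) sit in the keratin cluster of chromosome 12. The annotated spans of KRT8 and KRT18 overlap by 1084 bp on opposite strands. KRT19 lies at 17:41523617-41528308 on the minus strand, CFTR at 7:117287120-117715971, PRSS1 at 7:142749468-142753072, CPA1 at 7:130380339-130388114 and SPP1 at 4:87975667-87983532, these 4 on the plus strand, and SPINK1 at 5:147824572-147831671 on the minus strand.

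The 250 bases before the RefSeq start (GRCh38.p14) of 5 secretory members are printed because all were at least 2-fold higher in duct-like than in endocrine cells. They cover chr7:117479775-117480024 on the plus strand, chr4:87975464-87975713 on the plus strand, chr5:147831672-147831921 on the minus strand, chr7:142749222-142749471 on the plus strand and chr7:130380244-130380493 on the plus strand. Capitals mark 4 motifs searched on both strands: ACAAT (the SOX core), GTTAAT (part of an HNF1 site), TATAAA (the TATA box) and CACCTG (an E box, of the kind bound by the acinar factor PTF1A and other basic helix-loop-helix proteins).
CFTR: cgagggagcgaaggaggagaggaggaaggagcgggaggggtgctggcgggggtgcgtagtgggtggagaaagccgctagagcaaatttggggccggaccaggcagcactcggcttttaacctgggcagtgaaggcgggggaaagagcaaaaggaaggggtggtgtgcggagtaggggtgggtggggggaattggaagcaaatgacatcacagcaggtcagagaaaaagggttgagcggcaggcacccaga
SPP1: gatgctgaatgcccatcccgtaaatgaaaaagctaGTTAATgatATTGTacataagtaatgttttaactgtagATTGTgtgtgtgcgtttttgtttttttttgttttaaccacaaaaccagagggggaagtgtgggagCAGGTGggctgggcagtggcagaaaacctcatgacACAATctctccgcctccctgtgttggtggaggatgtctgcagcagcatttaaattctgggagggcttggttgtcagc
SPINK1: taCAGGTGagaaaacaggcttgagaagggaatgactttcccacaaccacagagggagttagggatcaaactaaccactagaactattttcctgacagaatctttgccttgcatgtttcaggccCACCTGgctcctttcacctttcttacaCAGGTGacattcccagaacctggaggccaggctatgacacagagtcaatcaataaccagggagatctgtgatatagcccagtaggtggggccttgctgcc
PRSS1: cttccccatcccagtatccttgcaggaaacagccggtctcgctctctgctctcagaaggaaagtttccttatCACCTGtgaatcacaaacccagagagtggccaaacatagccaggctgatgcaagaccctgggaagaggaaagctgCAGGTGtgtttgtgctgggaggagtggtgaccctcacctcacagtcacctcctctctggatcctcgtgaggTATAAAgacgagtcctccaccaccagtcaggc
CPA1: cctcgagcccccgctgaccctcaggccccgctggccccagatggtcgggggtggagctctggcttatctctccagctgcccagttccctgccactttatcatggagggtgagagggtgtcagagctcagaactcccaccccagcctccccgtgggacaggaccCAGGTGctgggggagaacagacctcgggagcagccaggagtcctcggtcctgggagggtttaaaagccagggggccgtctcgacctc
The SPP1 window held 3 ACAAT matches and a GTTAAT, and the CFTR window held none of the 4 motifs. ACAAT occurred in 24.6% of 35116 RefSeq windows of that length and in 2 of the 6 members that had one, SPP1 and KRT8. The E box occurred in 17.5% of all windows and in 4 of 6 member windows, with 3 matches in SPINK1, 2 in PRSS1 and 1 each in SPP1 and CPA1. PRSS1 alone had TATAAA, 32 bases before its start, which 10.7% of windows held. GTTAAT was in 6.23% of windows. No matches overlapped. KRT7, KRT18 and KRT19 had no window in the table used.

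KRT8, KRT18, CFTR, SPP1, SPINK1, PRSS1 and CPA1 were higher in duct-like than in endocrine cells, from 3.14-fold for SPINK1 to 1070-fold for CFTR. KRT19 differed by less than 2-fold and KRT7 ran the other way. Of the 8 members with at least 5 CPM in either group, 7 were at least 2-fold higher in duct-like cells over both libraries and higher in each, where 20.1% of 11665 genes passed the same rule, and none was lower, against 17.2% of genes. At 4-fold SPINK1 dropped out and 6 remained, where 10.1% of genes were higher. The median log2 ratio of all genes was 0.08. CFTR, SPP1, PRSS1 and CPA1 reached 5 CPM only in duct-like cells, so they could not have been called lower. KRT7, at 0.179 against 4.66 CPM, ran lower but fell under the 5 CPM limit. The counts therefore add no support to the levels themselves, and the same limit holds for the gene lists below. These are values of 1 cluster against others, given without a test.

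**Figure D1:**
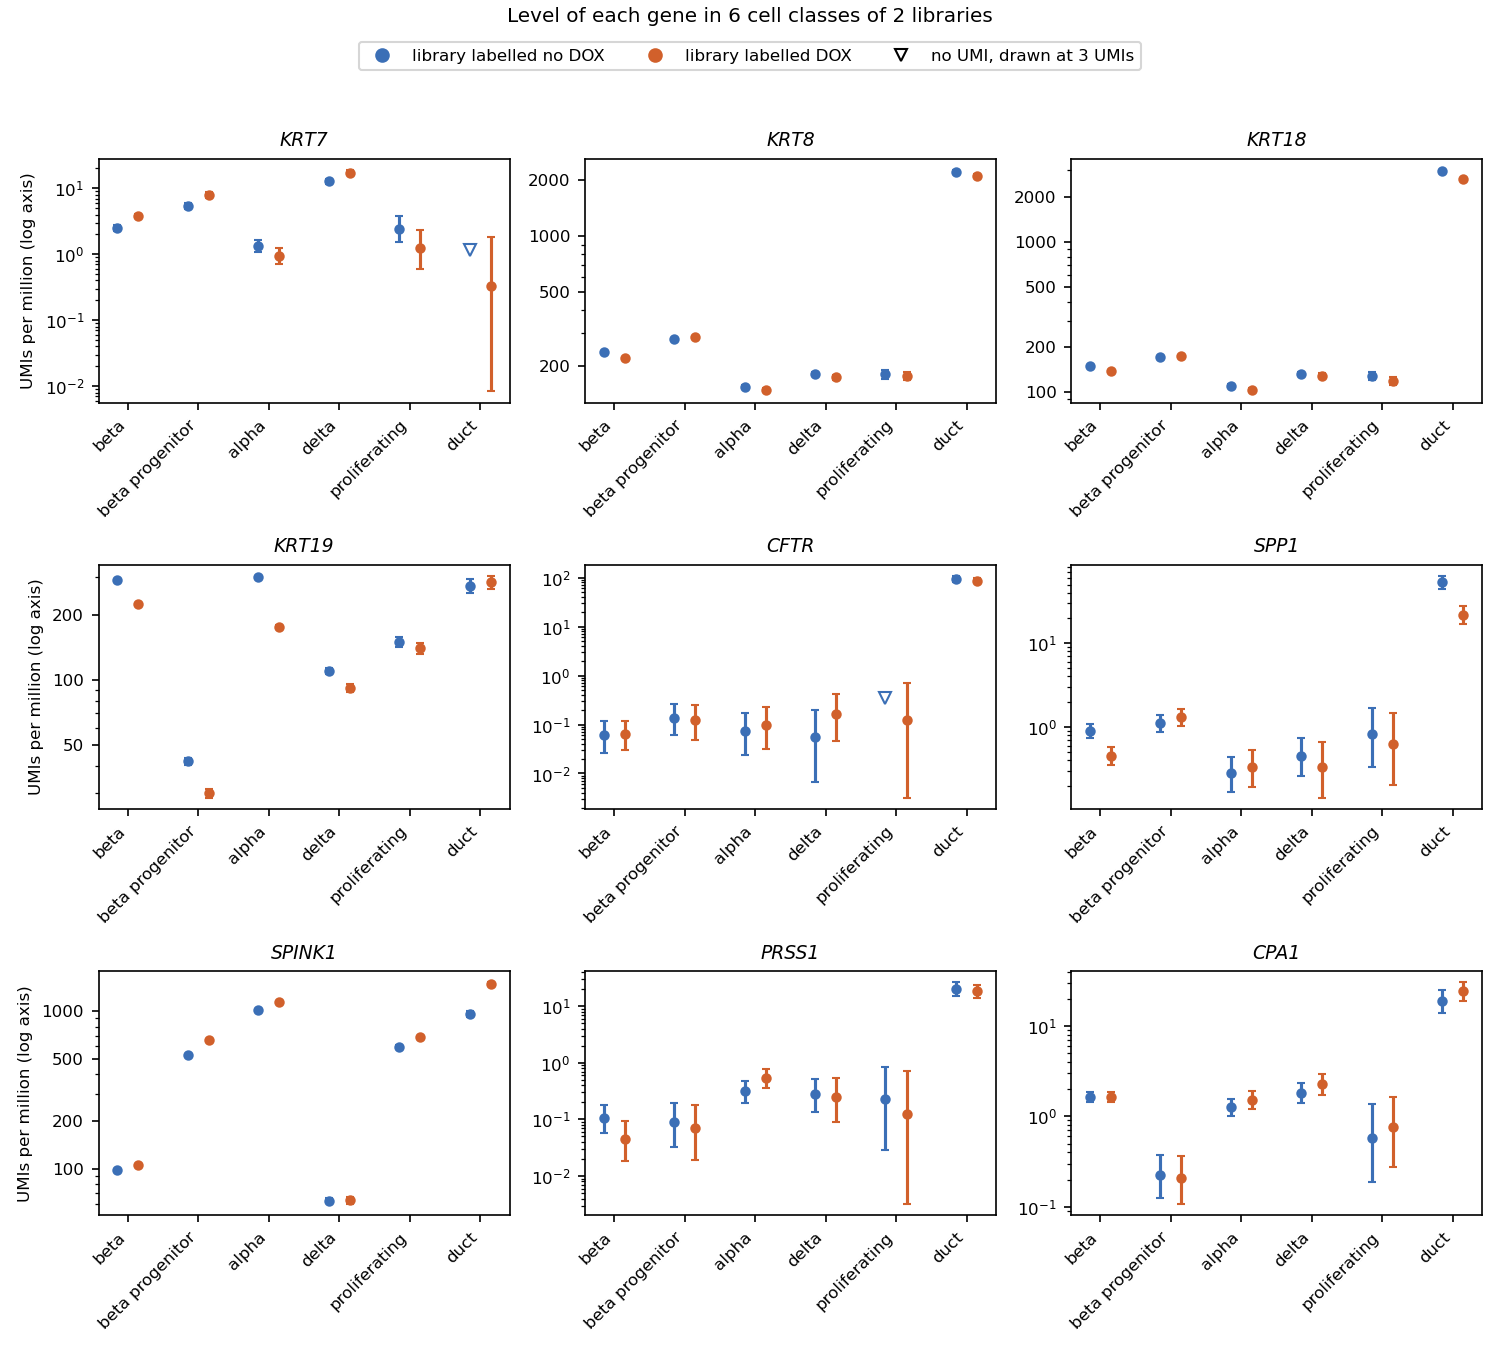
Level of each member in CPM (log scale) in the 6 named classes, with 1 point per library and exact 95% Poisson intervals. Open triangles stand at the level of 3 UMIs where a class had none. In both libraries the duct-like points of KRT8, KRT18, CFTR, SPP1, PRSS1 and CPA1 stand above all other classes, while KRT7 has no UMI there labelled no DOX and 1 UMI labelled DOX.

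KRT8, the type II keratin of simple epithelia, was found in all 333 duct-like cells. Its level there was 2223 CPM labelled no DOX and 2103 CPM labelled DOX. It then fell in both libraries from the beta cell progenitors (281 and 287 CPM) to beta-like cells (237.5 and 221 CPM), then to delta-like cells (181.5 and 174 CPM) and proliferating progenitors (180 and 177 CPM), whose intervals overlapped, and last to alpha-like cells (155 and 149 CPM). Every endocrine class thus carried KRT8, and the duct-like level was 9.82-fold the endocrine level (9.63 to 10.0). After thinning every cell to 5000 UMIs, a KRT8 UMI was still seen in 95.1% of duct-like and 64.4% of endocrine cells.

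KRT18, the type I partner of KRT8, again had the beta cell progenitors next and alpha-like cells lowest, with a wider gap to the duct-like cells. It reached 2959 CPM in duct-like cells labelled no DOX and 2620 CPM in those labelled DOX. Elsewhere it lay between 104 CPM (alpha-like, labelled DOX) and 173 CPM (beta cell progenitors, labelled DOX). The ratio of duct-like to endocrine levels was 19.7 (19.4 to 20.04). The balance of the pair therefore differed by class: 1.29 KRT18 UMIs were counted per KRT8 UMI in duct-like cells (1.25 to 1.32) and 0.641 in endocrine cells (0.635 to 0.646), with 0.605 to 0.734 over the single endocrine classes. The annotated spans overlap on opposite strands, and the strand setting of the counting was not given in the sources used here. How reads from the shared stretch were divided between KRT8 and KRT18 is thus not known. Both keratins also have processed pseudogenes that can take reads.

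KRT19, the small type I keratin used as a ductal marker, did not single out the duct-like cells. Labelled no DOX, alpha-like cells stood at 299 CPM, followed by 292 CPM for beta-like and 272 CPM for duct-like cells, the last with an interval of 252 to 293 that overlapped beta-like. Labelled DOX, duct-like cells were highest at 284 CPM (265 to 303), ahead of 224 CPM for beta-like and 176 CPM for alpha-like cells. The low end was the same in both, delta-like cells having 110 and 91.5 CPM and the beta cell progenitors 42.0 and 29.8 CPM. Detection also differed by library: thinned to 5000 UMIs, a KRT19 UMI was seen labelled no DOX in 59.5% of beta-like (58.3 to 60.6) and 48.6% of duct-like cells (40.4 to 57.0), and labelled DOX in 52.8% (51.8 to 53.9) and 63.3% (55.7 to 70.4). The beta cell progenitors had it in 14.8% and 11.9% of cells. The log2 ratio of duct-like to endocrine cells was 0.54 (0.46 to 0.61). For each KRT8 UMI there were 0.129 KRT19 UMIs in duct-like cells and 0.872 in endocrine cells.

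KRT7, a type II keratin of ducts and other glandular epithelia, was nearly absent from the duct-like class. Labelled no DOX, 154 duct-like cells had no KRT7 UMI, where 3 UMIs would be 1.18 CPM, and labelled DOX 179 cells had 1 UMI (0.328 CPM). Delta-like cells held the most, at 12.7 and 17.3 CPM, with KRT7 in 12.5% and 15.3% of cells. Beta cell progenitor-like cells followed at 5.33 and 7.90 CPM and beta-like cells at 2.54 and 3.81 CPM. The alpha-like class and the proliferating progenitors lay at 2.45 CPM or below with overlapping intervals. The log2 ratio of duct-like to endocrine cells was -4.71 over both libraries, with an interval of -10.0 to -2.23 that rests on the 1 UMI. At 5000 UMIs per cell, 0 of 325 duct-like cells (exact interval up to 1.13%), 6.13% of delta-like and 2.63% of beta cell progenitor-like cells had a KRT7 UMI.

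The finer clustering placed KRT7 in a narrower set of cells. Among 13 clusters, a beta cell progenitor-like cluster of 1268 cells led by CA2, TAC1 and PHOX2A had the highest level at 39.7 and 45.01 CPM and held 18.1% of all KRT7 UMIs. The delta-like cluster held another 30.5% at 14.5 CPM. The same CA2 cluster came second to the duct-like cells for KRT8 (402.5 and 379.6 CPM) and KRT18 (264 and 254 CPM) in both libraries, while its KRT19 was low at 57.2 and 50.5 CPM. KRT19 peaked in a Beta-2-like cluster of 4993 cells led by ASIC1, at 354 and 292 CPM, the latter with an interval that overlapped the duct-like cells, and was lowest in the other beta cell progenitor-like cluster at 26.7 and 20.1 CPM.

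**Figure D2:**
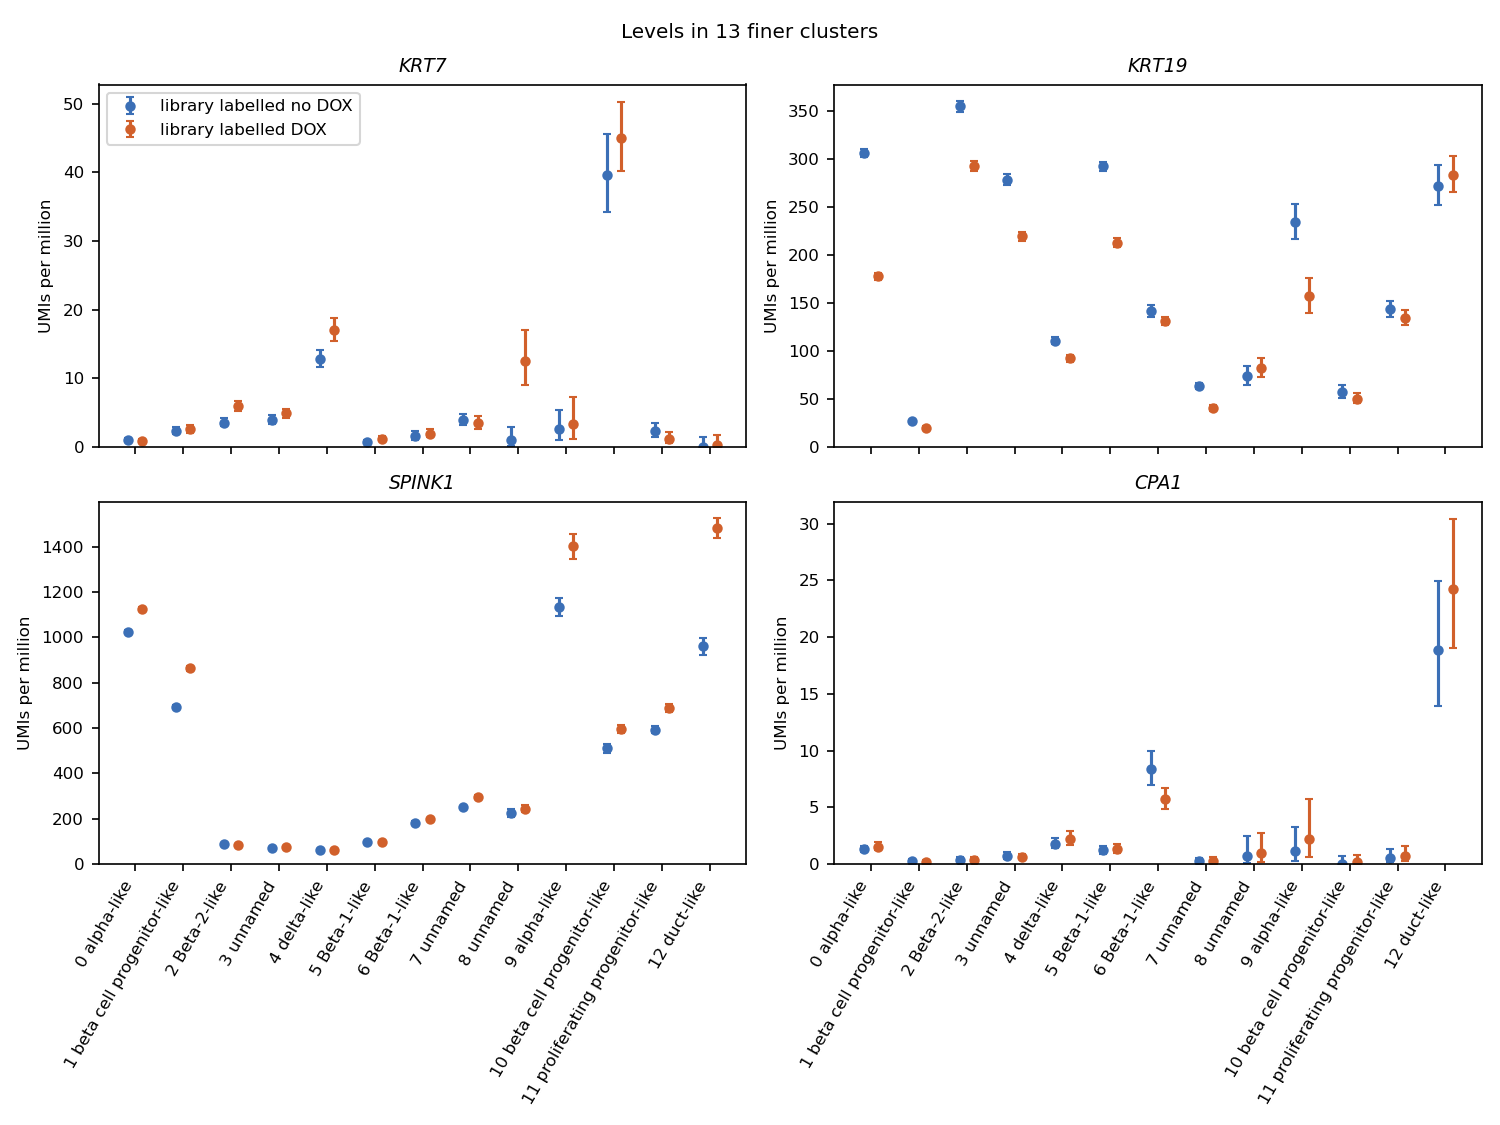
Levels of KRT7, KRT19, SPINK1 and CPA1 in the 13 clusters of the finer clustering, in CPM on linear axes, with 1 point per library and exact 95% Poisson intervals. KRT7 peaks in the CA2 cluster, KRT19 in the ASIC1 cluster, and CPA1 outside the duct-like cells in the MXRA8 cluster.

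Within the duct-like class KRT8 and KRT18 rose and fell together from cell to cell. Their Pearson correlation was 0.86 over 154 cells labelled no DOX and 0.86 over 179 cells labelled DOX, against 0.21 and 0.18 over beta-like cells. These cells share a library and depth differs among them, so the values are descriptions. KRT8 and KRT19 were less closely tied, at 0.42 and 0.41. Per 10000 UMIs the median duct-like cell had 14.98 KRT8 and 15.2 KRT18 UMIs, with 90th percentiles of 43.5 and 63.0. The median beta-like cell had 2.085 KRT8 and 1.18 KRT18 UMIs, and the median duct-like cell 1.95 KRT19 UMIs. Counting error weighs more at such low levels, so these correlations were not compared at like levels. Of 325 duct-like cells thinned to 5000 UMIs, 54.2% had UMIs of 3 of the 4 keratins and none of all 4, whereas 18.4% of beta-like cells had 3.

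CFTR, the chloride and bicarbonate channel of the duct surface, had the widest gap between duct-like and endocrine cells. Duct-like cells had 94.6 CPM labelled no DOX (241 UMIs) and 87.1 CPM labelled DOX (266 UMIs), carried by 84 of 154 and 99 of 179 cells. All 4 endocrine classes together had 24 and 26 UMIs, or 0.0796 and 0.0898 CPM, and no endocrine class exceeded 0.166 CPM. The intervals of those classes overlapped, so their order could not be told. The duct-like class, 0.741% of cells, held 90.9% of all CFTR UMIs. At 5000 UMIs per cell 25.2% of duct-like cells had a CFTR UMI (20.6 to 30.3) and 0.0464% of endocrine cells. A SOX9 UMI was seen in 72.0% of the 82 duct-like cells with CFTR and in 65.4% of those without.

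SPP1, which encodes the secreted phosphoprotein osteopontin, was also highest in duct-like cells but came from few of them. Its levels were 53.4 CPM labelled no DOX (136 UMIs in 22 cells) and 21.9 CPM labelled DOX (67 UMIs in 25 cells). A single cell labelled no DOX, with 40833 UMIs and also the most KRT8 and KRT18 of its library, held 64 of the 136. Without the cell with most SPP1 in each library the levels were 28.7 and 18.8 CPM, and the log2 ratio to endocrine cells moved from 5.75 to 5.11. Beta cell progenitor-like cells came next at 1.11 and 1.31 CPM, and no other endocrine class passed 0.896 CPM.

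**Figure D3:**
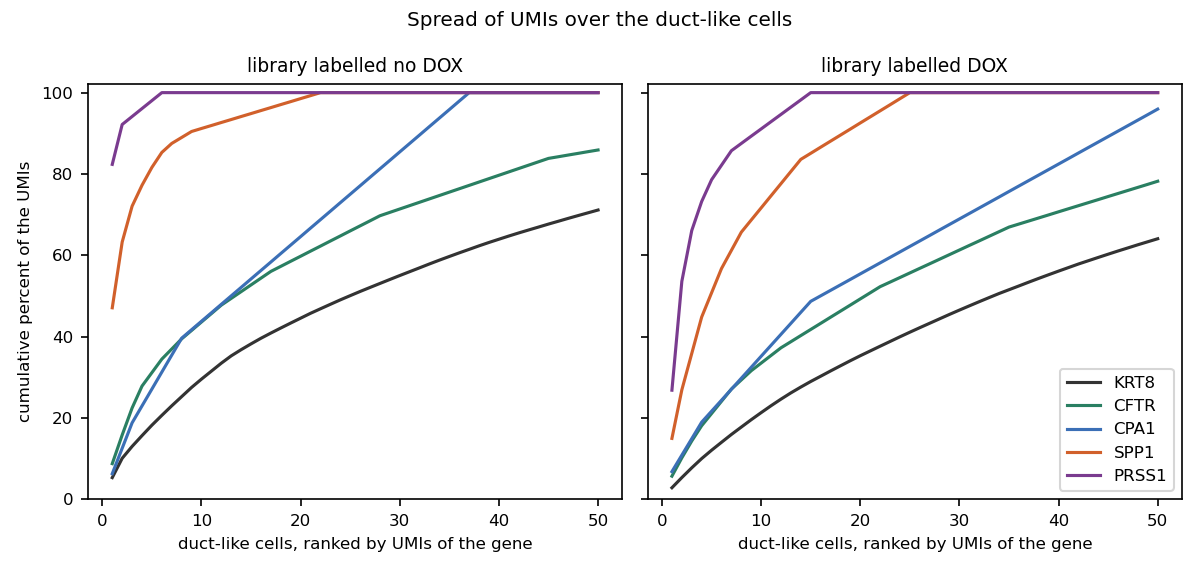
Cumulative percent of the duct-like UMIs of KRT8, CFTR, CPA1, SPP1 and PRSS1 against cells ranked by their UMIs of that gene, for the 50 highest cells and with 1 panel per library. The highest cell holds 82.4% of PRSS1 and 47.1% of SPP1 UMIs labelled no DOX, and 26.8% and 14.9% labelled DOX, so those curves start highest.

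SPINK1, the trypsin inhibitor that acinar cells secrete with their enzymes, was the acinar member found widely among endocrine cells. Alpha-like cells had 1025 CPM labelled no DOX and 1143 CPM labelled DOX, and duct-like cells 961 and 1482 CPM, so the first place changed with the library. Proliferating progenitor-like cells had 593 and 682 CPM and beta cell progenitor-like cells 526 and 661 CPM. Beta-like cells were far below alpha-like cells, at 97.8 and 105 CPM, and delta-like cells were lowest at 62.8 CPM in both. A SPINK1 UMI was seen at 5000 UMIs per cell in 87.4% of duct-like, 78.6% of alpha-like, 33.7% of beta-like and 24.3% of delta-like cells. Most SPINK1 RNA was thus endocrine: the larger alpha-like cluster of the finer clustering alone held 48.3% of its UMIs and the duct-like cells 2.75%.

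PRSS1, cationic trypsinogen, was rare and clumped. Duct-like cells had 20.01 CPM labelled no DOX (51 UMIs in 6 cells) and 18.3 CPM labelled DOX (56 UMIs in 15 cells), where endocrine cells had 0.169 and 0.155 CPM. One cell labelled no DOX held 42 of the 51 UMIs. Without the highest cell of each library the levels were 3.55 and 13.5 CPM and the log2 ratio to endocrine cells was 5.79, down from 6.88. In alpha-like cells labelled DOX, too, 1 cell had 20 of 28 UMIs. PRSS1 and its close paralog PRSS2 can share reads, so the split between them is uncertain.

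CPA1, carboxypeptidase A1, was spread more evenly. It was seen in 37 of 154 duct-like cells labelled no DOX (18.8 CPM) and in 53 of 179 labelled DOX (24.2 CPM), with no cell above 5 UMIs. Delta-like cells had 1.82 and 2.28 CPM, beta-like cells 1.64 and 1.63 CPM and alpha-like cells 1.27 and 1.52 CPM, with overlapping intervals between neighbours. Beta cell progenitor-like cells were lower, at 0.225 and 0.208 CPM. Outside the duct-like cells CPA1 was highest in a Beta-1-like cluster of 2825 cells led by MXRA8, MFAP4 and EMID1, which had 8.39 and 5.74 CPM and 30.7% of all CPA1 UMIs. Among duct-like cells thinned to 5000 UMIs, CPA1 was seen in 1 of the 11 with PRSS1 (9.09%) and in 11.8% of those without.

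The endocrine level of each member was set beside that of the 13 duct markers, as a percent of the duct-like level. Over the endocrine classes of both libraries the markers had a median of 0.646% and ran from 0.0787% (TM4SF1) to 3.76% (CALD1), with HES1 at 2.85%, so they shared no single ratio. CFTR at 0.0935%, PRSS1 at 0.850% and SPP1 at 1.86% fell within that range. KRT8 (10.2%), KRT19 (68.9%) and SPINK1 (31.9%) were above the highest marker in each library. KRT18 and CPA1 were so in only 1 of 2: labelled no DOX they had 4.84% and 6.72% where the highest marker had 3.71%, and labelled DOX 5.29% and 5.70% where it had 5.76%. KRT8 and KRT19 were also above the highest marker of each single endocrine class in each library. SPINK1 was below it in delta-like cells of both (6.53% against 7.08% and 4.24% against 5.53%) and in beta-like cells labelled DOX (7.10% against 8.64%). The part of free RNA in these endocrine levels was not tested.

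**Figure D4:**
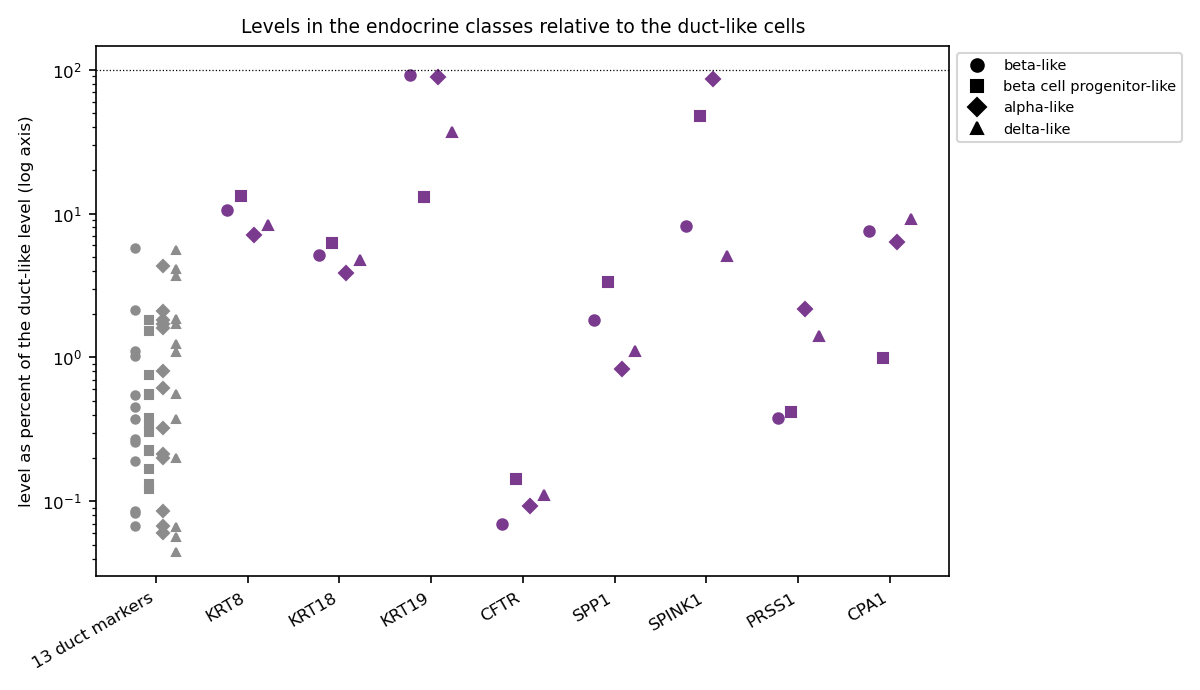
Level in each endocrine class as a percent of the duct-like level (log scale), both libraries pooled, for 8 members (purple) and for the 13 duct markers (grey), with 1 point per endocrine class and a dotted line at 100%. KRT7 is left out because its duct-like level rests on 1 UMI. KRT8 and KRT19 lie above the markers in every class and CFTR near the lowest of them.

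The other genes of these programmes were followed by lists. Of 32 other duct genes, 22 reached 5 CPM, and by the same rule 13 were higher and 3 lower in duct-like cells, where 20.1% and 17.2% of all genes were, with a median log2 ratio of 2.07 against 0.08 over all genes. WFDC2, an epithelial secreted protein, had 533 against 100.2 CPM and SLC4A4, the bicarbonate cotransporter that works with CFTR, 118 against 3.16 CPM. ONECUT2, a progenitor transcription factor, had 35.0 against 258 CPM and the tight junction gene CLDN7 43.9 against 153 CPM, while the adhesion gene EPCAM stood at 288 against 385 CPM. AQP1, LCN2, MMP7 and SLPI of the list had no UMI in duct-like cells, and MMP7 had none in endocrine cells either. Duct-like cells had 5601311 UMIs in all and endocrine cells 591098931. Counts of genes at 0 are thus not comparable between them, here or in the lists below.

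Acinar genes were few. Of 30 other acinar genes in the files only 4 reached 5 CPM, where 11665 of all 33694 genes did. By the same rule 2 of the 4 were higher in duct-like cells, where 20.1% of genes were. Among them was the nuclear receptor NR5A2 (11.1 against 0.611 CPM). The dipeptidase DPEP1 (13.4 against 71.0 CPM) was lower, where 17.2% of genes were. The lipase PNLIP, the amylase AMY2A, the elastase CELA1 and 7 others had no duct-like UMI. PNLIP, AMY2A and CELA1 had none in endocrine cells either. PRSS2 had 48.7 and 25.6 CPM, with 91.9% of its UMIs labelled no DOX in 1 cell. PRSS2 was followed after the values of PRSS1 had been seen.

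Of 20 other keratins, KRT10 alone reached 5 CPM, at 191 CPM in duct-like and 236 CPM in endocrine cells. In duct-like cells 11 had no UMI and in endocrine cells 8 had none, counts that are not comparable at these depths. Of the 11, KRT20 had 1.59 CPM in endocrine cells and the others at most 0.0135 CPM. The basal and squamous list had no gene at 5 CPM, with TP63 and IVL at 0 in duct-like cells and IVL at 0 in endocrine cells too. Of 10 tested filament partners and desmosome genes, 1 was higher and 2 were lower, where 20.1% and 17.2% of all genes were. The type III filament gene VIM was higher (1086 CPM labelled no DOX and 406 CPM labelled DOX, against 8.66 and 8.56 CPM). The plaque genes JUP and PPL were lower, while desmoplakin (DSP) stood at 260 against 316 CPM.

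Genes of other cell types also differed between duct-like and endocrine cells, in both directions. The mesenchymal list of 12 summed to 299.8 and 163 CPM by library in duct-like cells and to 15.2 and 15.9 CPM in endocrine cells. TAGLN alone had 240 and 113 CPM of the duct-like sums. TAGLN, ACTA2 and COL1A2 were higher, and DCN and LUM were at 0. Below 5 CPM, COL3A1 (0.357 against 4.15 CPM) and TWIST1 (0.714 against 1.67 CPM) were lower. COL1A1, PDGFRA and PDGFRB, also below 5 CPM over both libraries, were higher in each library. THY1 and PRRX1, on 7 and 2 duct-like UMIs, were higher labelled no DOX but lower labelled DOX. The liver and gut list had AFP at 117 and 161 CPM and FGB at 68.7 and 71.7 CPM by library in duct-like cells, both higher. ALB was higher too but uneven, at 121.7 CPM labelled no DOX and 10.8 CPM labelled DOX. VIL1 was lower, at 45.5 and 92.04 against 146 and 147 CPM. The endothelial list had EGFL7 lower and 5 of 8 genes at 0 in duct-like cells. Among these, KDR had 3.38 CPM in endocrine cells, but PECAM1 and CDH5 had only 0.00677 and 0.0288 CPM. At such levels few or no UMIs fall among the 5601311 of the duct-like class, so a 0 shows no difference. The same limit holds for DCN, LUM, MSLN, UPK3B and POU5F1, with at most 0.0372 CPM in endocrine cells. LRRN4 was higher and CALB2 lower in the mesothelial list, whose MSLN, WT1 and UPK3B were at 0, WT1 in endocrine cells too. LIN28A and L1TD1 of the pluripotent list were higher with POU5F1 at 0. Of 4 tested immune genes 3 were lower and none higher, where 17.2% and 20.1% of all genes were. TYROBP of that list, below 5 CPM, was higher in each library (1.43 against 0.0728 CPM over both). The part of such other cell types in the members' levels was not tested.

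Over all cells kept, none of the 5 members with at least 5 CPM in either library (the 4 keratins and SPINK1) differed by 2-fold between the libraries, where 0.124% of 10444 such genes did. CFTR, SPP1, PRSS1 and CPA1 were under 5 CPM in both, and their ratios were also within 2-fold. KRT8 and KRT18 were close to level, with log2 ratios (DOX over no DOX by label) of -0.01 and -0.02. SPINK1 (0.03), PRSS1 (0.03), CFTR (0.20) and CPA1 (0.20) were also near 0, the first with an interval of 0.02 to 0.04 and PRSS1 with one of -0.38 to 0.44. KRT7 was higher at 0.37 (0.26 to 0.48), and KRT19 and SPP1 were lower at -0.37 (-0.39 to -0.36) and -0.54 (-0.78 to -0.31).

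KRT19 was lower under the label DOX in all 4 endocrine classes. Its log2 ratio was -0.76 in alpha-like (-0.80 to -0.73), -0.50 in beta cell progenitor-like, -0.38 in beta-like and -0.27 in delta-like cells (-0.35 to -0.19). A ratio below 0 in each of the 4 classes was found for 12.4% of 10364 genes. In duct-like cells the ratio was 0.06 (-0.09 to 0.21). KRT7 was higher in delta-like (0.44) and beta-like cells (0.59) and stood at -0.48 in alpha-like cells, with an interval of -1.02 to 0.03. Its ratio in the beta cell progenitors was 0.57, but within the 2 finer clusters of that name it was 0.11 (-0.33 to 0.56) and, in the CA2 cluster, 0.18 (-0.08 to 0.45). A finer cluster of 2804 cells, left unnamed with its best marker score for beta cell progenitors, had a KRT7 ratio of -0.16 (-0.64 to 0.32). The KRT7-rich CA2 cluster held 491 cells labelled no DOX and 777 labelled DOX.

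In duct-like cells only SPP1 passed 2-fold among the 8 members with a ratio, at a log2 ratio of -1.28 (-1.73 to -0.85), where 5.61% of 11060 genes passed in either direction and 3.07% were lower. It rests on the single cell described above: without the highest cell of each library the ratio was -0.61, and with doublets kept it was 0.0623, while SPINK1 then passed 2-fold at 1.08. SPINK1 was higher at 0.63 (0.55 to 0.70), and it remained at 0.63 without the highest cells. CFTR stood at -0.12 (-0.38 to 0.14), CPA1 at 0.36 (-0.18 to 0.92) and PRSS1 at -0.13 (-0.70 to 0.45), the last turning to 1.92 without its highest cells. With each cell thinned to 5000 UMIs CPA1 passed 2-fold at 1.015. KRT8 and KRT18 stood at -0.08 and -0.18.

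**Figure D5:**
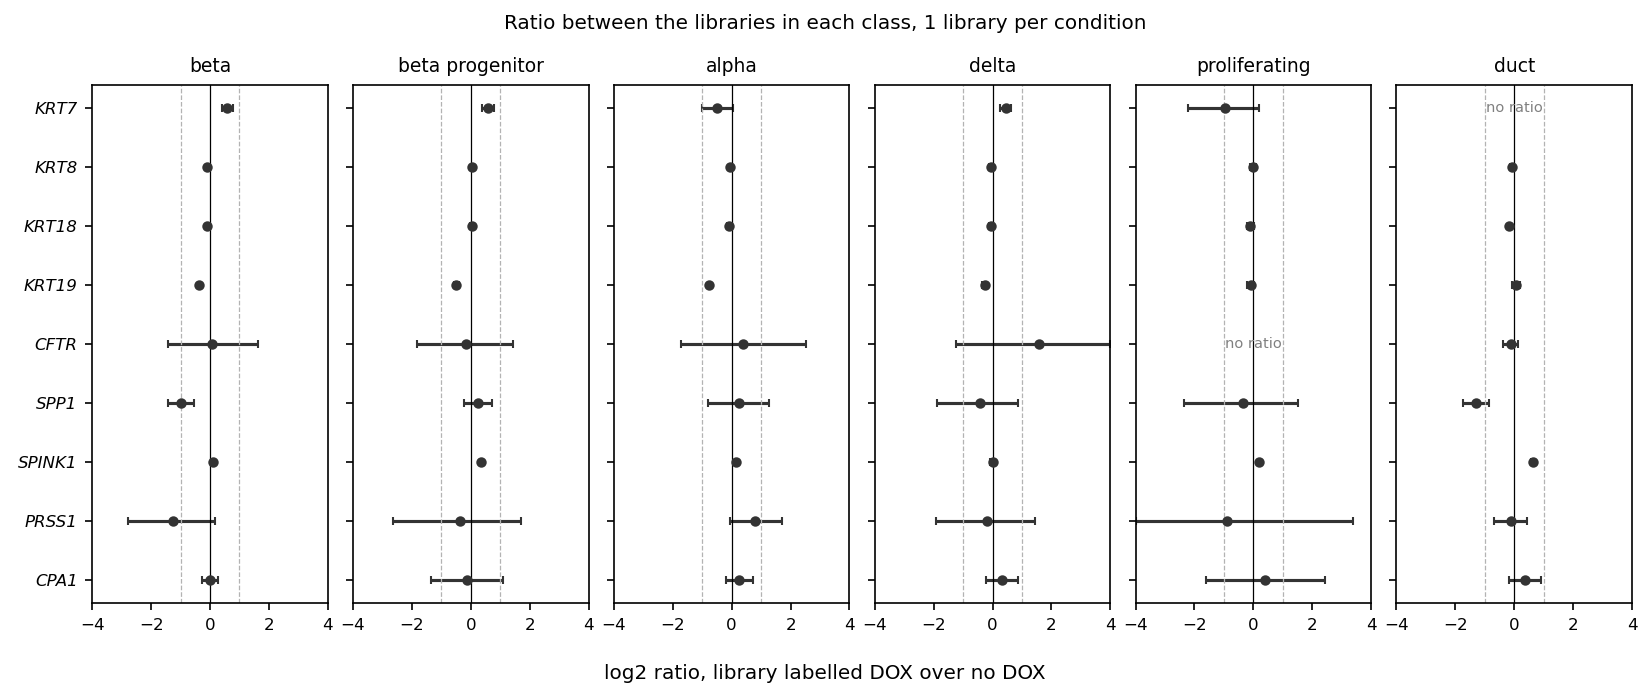
Log2 ratio, DOX over no DOX by label, for each member in each class, with exact 95% intervals drawn only as far as 4 in either direction, which shortens those of CFTR in the delta-like class and of PRSS1 in the proliferating progenitors. Dashed lines mark 2-fold. KRT19 lies below 0 in the 4 endocrine classes, and no ratio is drawn where a library had no UMI.

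The genes whose levels most resembled each member over 13 clusters in 2 libraries (26 points that share clusters and libraries, 9069 genes compared by Pearson correlation of log2 CPM) were these. KRT8 and KRT18 were each other's nearest at 0.97. In the duct-like cluster KRT8 stood at 2223 and 2103 CPM and KRT18 at 2959 and 2620 CPM. Elsewhere KRT8 was at most 402.5 CPM and KRT18 264 CPM, so this value may rest largely on the 2 duct-like points. CFTR was nearest to AC018647.3, MYBPC1 and KIAA1462 (each 1.00), SPP1 to WTIP, NPPB and MCAM (0.98 to 0.96), and PRSS1 to RNASE1, NEXN and VCAM1 (0.99). Outside the duct-like cluster no point of these 3 members was above 0.43 CPM (CFTR), 1.72 CPM (SPP1) or 0.56 CPM (PRSS1), so their correlations rest on the 2 duct-like points, of which that of PRSS1 labelled no DOX came mostly from 1 cell, and other genes restricted to the duct-like cells would score alike. KRT19 was nearest to FAM107B, PPIC and NT5C (0.85 to 0.83), SPINK1 to the interferon-related genes IFIH1 and IRF1 and the polyamine enzyme SAT1 (0.89 to 0.85), CPA1 to ITGA9, TSPAN18 and EFNA4 (0.91 to 0.90) and, among those of KRT7, DDIT3 stood at 0.76 and HYDIN at 0.73. KRT7 had a negative correlation with each other member, from -0.23 with KRT8 to -0.49 with CPA1. These values include the 2 duct-like points, where KRT7 was at 0 and 0.328 CPM and KRT8 at 2223 and 2103 CPM. Among the other clusters the CA2 cluster was highest for both KRT7 and KRT8 in each library. Correlations without the duct-like points were not computed, so the sign for KRT7 and KRT8 may rest on those points.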

How the data were processed

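RNA of single cells from 2 libraries was counted with 10X Genomics chemistry. The authors deposited count matrices of UMIs per gene and barcode, not normalised, with GRCh38 as build. Per the labels, Cell Ranger 3.0, kallisto, bustools 0.40.0, Scanpy and Seurat were used, and the tool behind the deposited counts was taken to be Cell Ranger, which the matrix headers name.

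Barcodes under 1000 UMIs were left out, and doublets called by Scrublet were removed per library (run in scanpy 1.11.5; 26.6% and 26.5% of barcodes). Counts were log-normalised per 10000 UMIs, and total UMIs and mitochondrial share were regressed out. The 50 principal components fed a graph with 3 neighbours per library, and Leiden clustering used resolutions 0.2 and 0.5 (leidenalg 0.10.2). The members and the keratin, duct and acinar lists were left out of the 2293 variable genes where present. Clusters were named from fixed markers that the study listed for these libraries and textbook beta cell genes.

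UMIs were summed per class. Poisson, binomial ratio and Clopper-Pearson intervals (scipy 1.17.1) were exact and cover counting error only, since each condition had 1 library and no test was made. A gene was called at 2-fold if it had 5 CPM in either group. The sums and ratios were tested on simulated data. Named genes were the 9 members, SOX9, the 3 genes nearest to each member, and up to 4 genes per list with the highest duct-like or endocrine levels; those at 0 and further called genes were named after their values were seen. Some genes that this rule names are not reported here. The members and lists were chosen with earlier results of these data known. Alternatives changed the UMI minimum, doublet and mitochondrial filters, clustering, scaling, weighting and depth.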

Additional observations from a re-analysis of the deposited data

Results flagged for a closer look

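The unnamed cluster, which entered no comparison of named classes but is part of all cells kept, had a median of 70.8% mitochondrial UMIs. It held KRT7 at 9.41 CPM in the library labelled DOX (29 UMIs in 14 cells) and 0.699 CPM in that labelled no DOX (2 UMIs). The cell with most KRT7 labelled DOX, 6 UMIs, had only 7.3% mitochondrial UMIs. KRT18 there was 88.9 CPM labelled DOX and 58.7 CPM labelled no DOX. A single cell labelled DOX, with 2.7% mitochondrial UMIs, held 50 of 274 KRT18 UMIs. KRT8 was higher in the library labelled DOX in beta cell progenitor-like cells, with a log2 ratio of 0.0337, and lower in beta-like cells, at -0.10 (-0.13 to -0.08). Within the 2 finer progenitor-like clusters it was -0.0074 (-0.05 to 0.03) and, in the KRT8-rich CA2 cluster of 491 cells labelled no DOX and 777 labelled DOX, -0.085. A further finer cluster of 2804 cells had its best marker score for beta cell progenitors, too low for a name. KRT8 stood there at 0.060 (0.003 to 0.117). None of these differences was tested, as each condition had 1 library.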

How the results depend on the processing

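The members called higher in duct-like cells numbered 7 under all 15 alternatives but a 4-fold threshold, which left 6, and no log2 ratio to endocrine cells changed sign in 123 recomputed values. With doublets kept, duct-like cells numbered 614 in place of 333. The count of members past 2-fold between libraries in duct-like cells was 2 in place of 1 under each of 4 settings, a 2000 UMI minimum, doublets kept, a 20% ceiling on mitochondrial UMIs and 15 neighbours without balancing. With doublets kept SPP1 turned to a log2 ratio of 0.0623, and SPINK1 passed 2-fold at 1.08. PRSS1 ranged from -0.13 to 3.19, the highest with the 2000 UMI minimum. CPA1 moved from 0.36 to 1.015 with each cell thinned to 5000 UMIs. With every named class weighted equally, 1 member in place of 0 passed 2-fold over all cells (SPP1, -1.19). The causes were not tested. Leaving out the highest cell of each library was chosen after seeing the data. KRT19 between duct-like and endocrine cells ranged from 0.30 to 1.00, and KRT7, with 1 duct-like UMI, from -5.43 to -1.52. PRSS1 between these cells ranged from 5.12 to 7.66. No paired analysis was possible because each condition had 1 library. The duct-like values of KRT7 rest on 1 UMI, and those of PRSS1 and SPP1 on few cells.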
